A study of Arabidopsis thaliana with 35 samples.

Results

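The genes described here are 50 members of the main families of wall-loosening proteins of Arabidopsis thaliana. They comprise 33 xyloglucan endotransglucosylase/hydrolase genes, XTH1 to XTH33, and 17 alpha-expansins, EXPA1 to EXPA6, EXPA8 to EXPA17 and EXPA20. EXPA7 and EXPA18 served as root hair markers and were not members. The members were set by a list of AGI identifiers whose rule uses no measured value. The list was nevertheless chosen with earlier results of these data known, so it was not blind to them. All 50 members were found among the 28775 genes of the deposited count table. The low-count filter, which asks for about 10 counts in enough libraries, was passed by 21115 genes and by 42 of the 50 members, of which 26 were XTH genes and 16 were alpha-expansins.

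The study asked how Polycomb Repressive Complex 2 (PRC2), which silences genes by methylating histone H3, limits the hormone-induced formation of somatic embryos in vegetative tissue. RNA-seq was made from the shoot apex region of 14-day-old seedlings, with cotyledons, true leaves and roots dissected away so that the meristem regions remained. The genotypes were the double mutant clf-29 swn-3 (cs), which lacks the PRC2 methyltransferases CURLY LEAF (CLF) and SWINGER (SWN) and was picked from the progeny of clf/+ swn/- plants, and wild-type Col-0 (WT). The treatments lasted 55 h and were wounding with 5 μM 2,4-D, a synthetic auxin (cs-WA and WT-WA), 2,4-D on intact seedlings (cs-A and WT-A), wounding alone, in which the shoot was cut from the root in the upper hypocotyl (cs-W and WT-W), and mock treatment with the solvent DMSO (cs-M and WT-M). Untreated seedlings (cs-ctrl and WT-ctrl) were collected at 0 h. There were 6 cs-ctrl and 5 WT-ctrl libraries and 3 in each of the other 8 groups, 35 in all. By the study's methods, the experiment was done in biological triplicates at different times. Replicate numbers recur among the untreated libraries of a genotype, so these were not all separate growths. The fit nevertheless counted each as independent, and the adjusted p values of contrasts with untreated groups rest on this.

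Plant cell walls are held together by cellulose microfibrils tied to one another through xyloglucan. Alpha-expansins loosen these contacts without cutting any bond and act best at the acid pH that auxin brings about by driving proton pumps, so they are the classical effectors of acid growth. XTH enzymes cut xyloglucan chains and rejoin them to others, which lets a wall yield or, depending on the member, be built and reinforced. By sequence, XTH proteins fall into groups I, II, IIIA and IIIB, and the members of group IIIA act mainly as hydrolases. XTH17 to XTH20 are known from roots, XTH14 and XTH26 also from root hairs, XTH22 (also called TCH4) from touch responses, XTH19 and XTH20 from the healing of cut stems, EXPA14 and EXPA17 from lateral root formation, EXPA1 from guard cells and lateral root founder cells, and EXPA2 from germinating seeds.

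The promoters of 4 members are shown because these genes, among members averaging at least 1 CPM, had the largest called change in each direction and family in WT-WA against WT-M: XTH20 and EXPA14 rose and XTH6 and EXPA5 fell. Each is the 300 bases before the annotated gene start, in the direction of the gene, from the RefSeq annotation of assembly TAIR10.1. Capitals mark the auxin response element TGTCTC or its high-affinity form TGTCGG on either strand, so that GAGACA and CCGACA are the same words read from the other strand, and the EXPA14 promoter holds neither word. The promoters lie at chr5:19481597-19481896 on the plus strand (XTH20), chr5:22808341-22808640 on the plus strand (EXPA14), chr5:26298428-26298727 on the plus strand (XTH6) and chr3:11013452-11013751 on the minus strand (EXPA5).
XTH20: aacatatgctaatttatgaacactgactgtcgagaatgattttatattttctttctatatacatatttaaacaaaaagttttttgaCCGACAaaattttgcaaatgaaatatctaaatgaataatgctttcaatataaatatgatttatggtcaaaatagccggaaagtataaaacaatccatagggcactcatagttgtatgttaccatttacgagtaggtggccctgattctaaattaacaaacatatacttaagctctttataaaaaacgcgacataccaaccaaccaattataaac
EXPA14: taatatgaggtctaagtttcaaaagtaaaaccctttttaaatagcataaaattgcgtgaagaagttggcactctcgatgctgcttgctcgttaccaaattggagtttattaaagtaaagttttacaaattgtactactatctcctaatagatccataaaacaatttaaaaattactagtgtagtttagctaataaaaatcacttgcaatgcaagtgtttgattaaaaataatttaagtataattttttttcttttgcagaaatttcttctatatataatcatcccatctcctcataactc
XTH6: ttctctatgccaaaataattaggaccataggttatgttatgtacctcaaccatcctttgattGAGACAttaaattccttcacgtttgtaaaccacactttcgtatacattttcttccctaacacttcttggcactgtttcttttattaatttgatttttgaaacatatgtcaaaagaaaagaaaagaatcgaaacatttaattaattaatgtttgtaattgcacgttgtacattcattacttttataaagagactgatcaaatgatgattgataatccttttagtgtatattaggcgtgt
EXPA5: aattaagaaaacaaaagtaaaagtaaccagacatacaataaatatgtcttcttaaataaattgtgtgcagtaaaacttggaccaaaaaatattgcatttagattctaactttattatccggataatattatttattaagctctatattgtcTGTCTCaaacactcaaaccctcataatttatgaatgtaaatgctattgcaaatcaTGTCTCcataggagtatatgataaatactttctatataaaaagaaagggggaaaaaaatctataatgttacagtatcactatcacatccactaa

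The words were searched on both strands, TGTCTC and TGTCGG share their first 4 letters so that a position matches at most 1 of them, and a match is only a description of the sequence. TGTCTC was present in the promoters of 6 of the 50 members, or 12%, compared with 12.9% of the 26709 promoters of protein-coding genes in the table. TGTCGG was present in 2 of the 50, XTH20 and EXPA12, or 4%, compared with 4.89% of all promoters. The G-box CACGTG was present in the promoter of 1 member, EXPA2, or 2%, compared with 7.18% of all.

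Values are given as CPM, the count of a gene relative to the total of its library after TMM scaling, and levels of different genes are compared only as CPM per kb of exon. Library totals ranged from 11375703 to 18094983 counts, so that 3 counts corresponded to between 0.166 and 0.269 CPM. CLF itself had 11 to 30 counts in the cs libraries and 422 to 852 counts in the WT libraries, which matched the labels, and SWN averaged 25.5 to 32.6 CPM in the cs groups and 47.3 to 64.5 CPM in the WT groups. The study's list of read numbers gives the total of cs-W replicate 2 for WT-W replicate 2 and the reverse. The names in the count table, which the CLF and SWN counts fit, were used as they stand. The untreated libraries came as sets named C0 and C1 in the table, and these sets did not overlap for 16 of the 42 tested members in cs-ctrl and for 22 of 42 in WT-ctrl. With so few libraries per set some genes separate by chance, and the share of all tested genes was not counted. These counts therefore describe the libraries and not the members. In cs-ctrl, replicate 3 of set C0 stood apart by its high level of 8 XTH genes. Marker genes of other tissues moved with the treatments, and their part in the results was not tested. The summed level of 5 leaf photosynthesis genes was 4005 to 5749 CPM in cs-WA, 6229 to 7099 CPM in cs-M, 892 to 1070 CPM in WT-WA and 9241 to 11301 CPM in WT-M. The sum of 5 root tip genes was 60.7 to 75.3 CPM in cs-WA, 2.94 to 3.88 CPM in cs-M, 84.7 to 111 CPM in WT-WA and 2.53 to 2.97 CPM in WT-M. The sum of 5 root hair genes was 14.1 to 23.4 CPM in cs-WA, at most 0.0706 CPM in cs-M, 0.457 to 2.47 CPM in WT-WA and at most 0.0552 CPM in WT-M. The shoot meristem markers summed to 237 to 263 CPM in cs-WA and to 113 to 132 CPM in WT-WA, where WUS and CLV3 were at 0. In dissected tissue, fewer cells of a type and less RNA per cell cannot be told apart.

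In a contrast of groups, a member was called, and is said to have risen or fallen, where the Benjamini-Hochberg adjusted p of edgeR's quasi-likelihood test over all 21115 genes was under 0.05 and even the closest pair of libraries of the groups compared was at least 0.6 apart in log2 CPM. Fold changes are fitted log2 values with their standard error (SE). The 3 cs treatments share the cs-M libraries and the 3 WT treatments share the WT-M libraries.

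The families were carried by a few abundant members. XTH9 had the largest share of the XTH sum in all 5 cs groups and in WT-W and WT-ctrl, and XTH4 in WT-WA, WT-A and WT-M. EXPA4 had the largest share of the alpha-expansin sum in both genotypes after the combined treatment, 2,4-D and wounding and also in cs-M, EXPA3 in WT-M, and EXPA6 in both untreated groups. Over all 35 libraries, XTH9 and XTH4 were the most abundant XTH genes, at 432 and 186 CPM per kb, and EXPA4 the most abundant alpha-expansin, at 215 CPM per kb. The XTH genes summed to 917 ± 49 CPM per kb in cs-WA, 1090 ± 105 in cs-M, 700 ± 267 in WT-WA and 996 ± 98 in WT-M (SD, n = 3 each). XTH9 made up 44.4% of this sum in cs-WA and 54.2% in cs-M, against 12.8% in WT-WA and 26.0% in WT-M. It made up 51.7% in cs-W and 60.3% in cs-ctrl, against 35.4% in WT-W and 38.1% in WT-ctrl. XTH4, by contrast, held 7.73% in cs-WA and 21.9% in WT-WA, and XTH19 alone held 16.7% in WT-WA and 20.04% in WT-A. The share of XTH9 was higher in each cs group than in the WT group of the same treatment, as the plot of family shares shows.

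The library values of these abundant XTH genes are given because of their abundance, a choice made after the values were seen. XTH9 (AT4G03210), known from shoot apices and wood, had 565, 672 and 620 CPM in cs-WA and 868, 811 and 1027 CPM in cs-M. In wild type it had 105, 85.5 and 242 CPM in WT-WA and 361, 458 and 368 CPM in WT-M. The combined treatment gave lower values in both genotypes, but XTH9 was called in neither (in wild type its adjusted p was 0.00098, and its closest libraries were 0.58 log2 units apart). It was called higher in the mutant under mock treatment (log2 fold change 1.19), 2,4-D (2.20) and the combined treatment (2.10). XTH4 (AT2G06850), also known from wood, had 110, 132 and 102 CPM in cs-WA, against 215, 190 and 323 CPM in WT-WA. It had 159, 192 and 184 CPM in cs-M, against 504, 594 and 739 CPM in WT-M. It was called lower in the mutant than in wild type under mock treatment (-1.78), 2,4-D (-1.68) and wounding (-1.90).

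**Figure D1:**
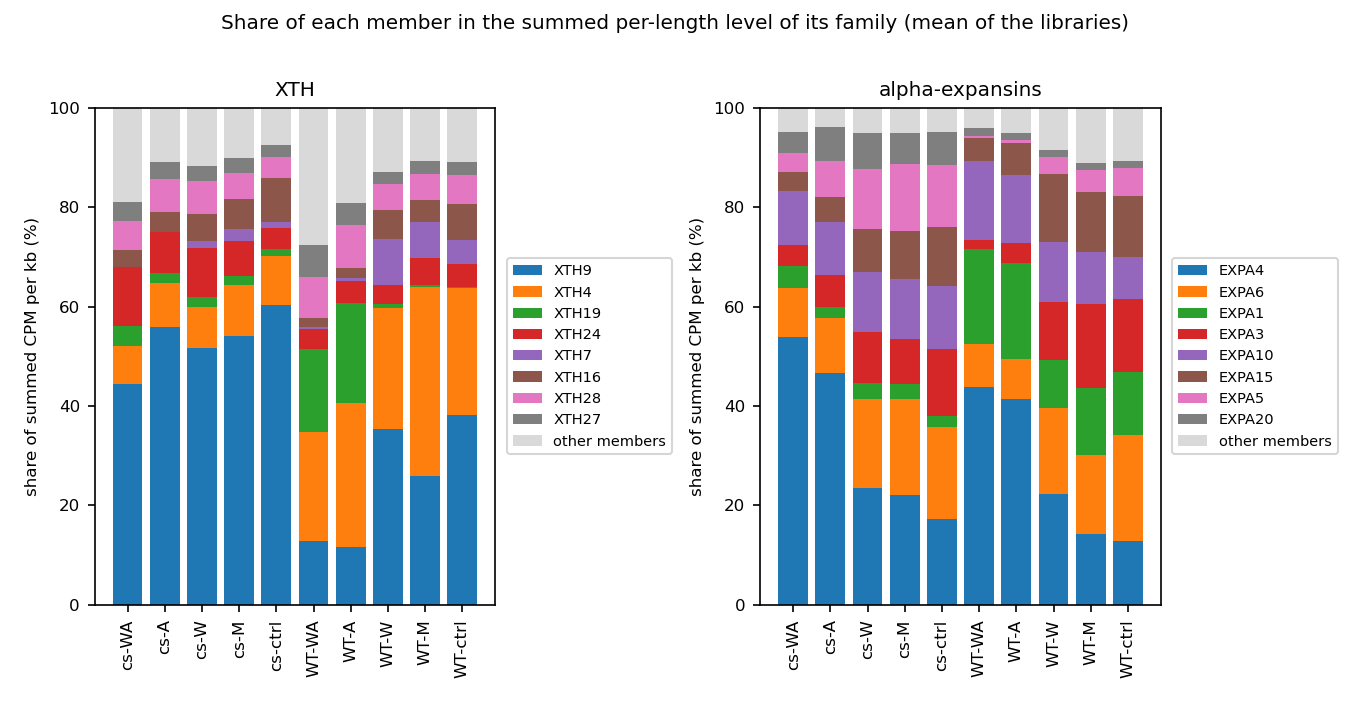
Share (%) of the 8 members with the highest share in any group in the summed CPM per kb of its family, as the mean of the libraries of each group, with all other members in grey. XTH9 (44.4% in cs-WA, 12.8% in WT-WA) dominated the XTH sum of the cs groups, and EXPA4 took 54.0% of the alpha-expansin sum in cs-WA and 43.9% in WT-WA.

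The alpha-expansin sum was higher with 2,4-D than with mock treatment in both genotypes, although the sums were not tested. It was 705 ± 59 CPM per kb in cs-WA and 573 ± 26 in cs-A, against 412 ± 4.3 in cs-M (SD, n = 3 each). In wild type it was 1292 ± 250 CPM per kb in WT-WA and 1338 ± 170 in WT-A, against 649 ± 14 in WT-M. EXPA4 accounted for much of this: its share was 54.0% in cs-WA, 46.6% in cs-A and 22.0% in cs-M, and 43.9% in WT-WA, 41.5% in WT-A and 14.2% in WT-M. EXPA1 added 19.0% in WT-WA and 19.2% in WT-A, whereas it was a minor member in the mutant, at 31.6 ± 3.3 CPM per kb in cs-WA and 246 ± 51 in WT-WA.

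**Figure D2:**
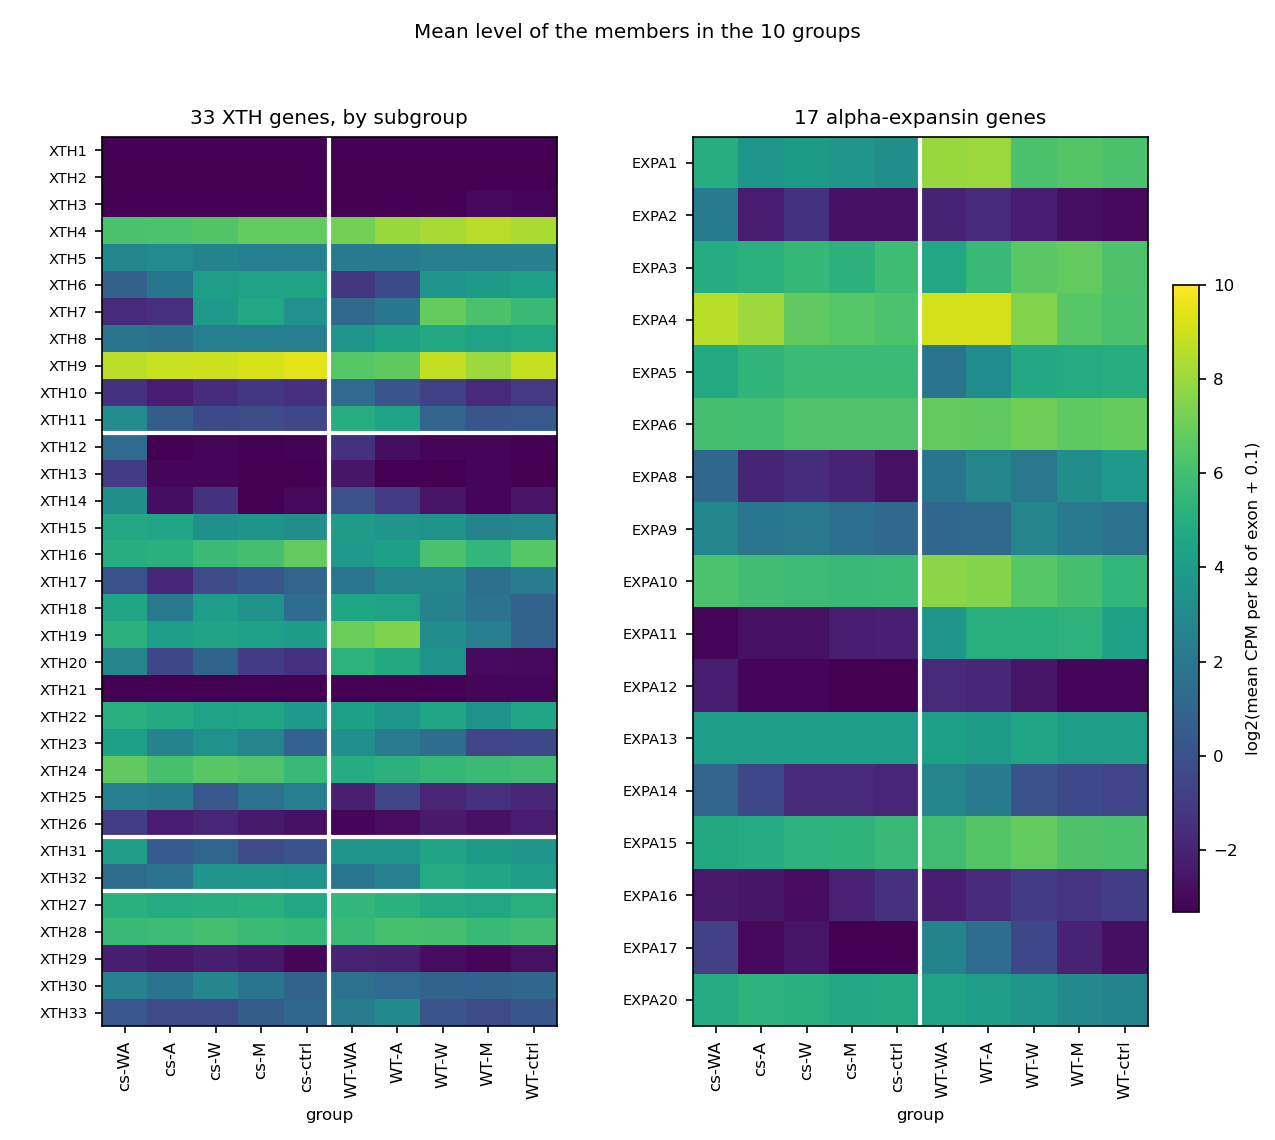
Mean level of each of the 50 members in the 10 groups as log2(mean CPM per kb of exon + 0.1), XTH genes on the left ordered by subgroup (I, II, IIIA, IIIB, separated by white lines) and alpha-expansins on the right. XTH9, XTH4 and EXPA4 had the highest levels over the libraries (432, 186 and 215 CPM per kb), and XTH1 and XTH2 had no count in any library.

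In wild type, wounding with 2,4-D raised some wall-loosening genes and lowered others. Of the 42 tested members, 13 rose (7 XTH and 6 alpha-expansins) and 8 fell (4 of each family) in WT-WA against WT-M, while 16% of all tested genes rose and 17.9% fell. The median log2 fold change was 0.22 over the members and 0 over all genes, and the median size without its sign was 1.53 over the members and 0.65 over all genes. By subgroup, 2 of 8 tested XTH genes of group I rose and 3 fell, 5 of 12 of group II rose and none fell, 1 of 2 of group IIIA fell, and no group IIIB gene was called.

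Among the XTH genes, XTH20 (AT5G48070, chromosome 5, 19481897 to 19483527) showed the largest rise. It had 51.1, 70.9 and 42.6 CPM in WT-WA, against 0, 0.0552 and 0.0675 CPM in WT-M, where only 2 reads were counted in all. The treated libraries thus stood far above the mock libraries, with a ratio of 1259 (95% exact counting interval 348 to 10400) and a fitted log2 fold change of 10.04 (SE 0.58, edgeR adjusted p = 5.2e-15). XTH14 (AT4G25820) had 0.261, 0.821 and 2.04 CPM in WT-WA, against 0, 0.0552 and 0 CPM in WT-M. All treated libraries were above all mock libraries, but at levels near the limit of counting, so the ratio of 48.5 has an interval of 8.32 to 1954 (log2 fold change 5.12, SE 1.09, edgeR adjusted p = 0.00018). The other XTH genes that rose were XTH11 (4.94), XTH19 (4.57), XTH23 (3.99), XTH10 (3.50) and XTH18 (2.84, all log2 fold changes), of which XTH18 was not called without WT-M replicate 1 (adjusted p = 0.051).

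XTH6 (AT5G65730) and XTH7 (AT4G37800), both of group I, fell most. XTH6 had 0.587, 0.316 and 0.617 CPM in WT-WA, against 25.8, 24.1 and 17.2 CPM in WT-M. Every treated library was below every mock library by more than an order of magnitude, with a log2 fold change of -5.44 (SE 0.45, edgeR adjusted p = 1.3e-11). XTH7 had 3.39, 1.71 and 3.76 CPM in WT-WA, against 105, 92.3 and 79.9 CPM in WT-M, again without overlap (log2 fold change -4.96, SE 0.41, edgeR adjusted p = 1.2e-11). XTH32 of group IIIA (-2.62) and the abundant XTH4 (-1.33) fell as well.

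Of the alpha-expansins, EXPA4 (AT2G39700) was the most abundant and rose strongly. It had 952, 1005 and 613 CPM in WT-WA, against 127, 132 and 154 CPM in WT-M. The closest pair of libraries was 1.99 log2 units apart, and the log2 fold change was 2.64 (SE 0.25, edgeR adjusted p = 2.4e-10). EXPA14 (AT5G56320), at much lower levels, had 10.6, 10.5 and 12.7 CPM in WT-WA, against 1.46, 0.939 and 1.22 CPM in WT-M. Its libraries did not overlap either (log2 fold change 3.23, SE 0.40, edgeR adjusted p = 5e-08). EXPA17 (5.45), EXPA10 (1.60), EXPA1 (1.49) and EXPA20 (1.32) also rose, of which EXPA17 stayed low, at 5.00 to 8.42 CPM in WT-WA and 0.0675 to 0.230 CPM in WT-M.

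EXPA5 (AT3G29030), known from hypocotyl and leaf growth, and EXPA3 (AT2G37640) moved the other way. EXPA5 had 3.59, 3.35 and 7.34 CPM in WT-WA, against 36.0, 39.4 and 48.4 CPM in WT-M. All treated libraries were below all mock libraries (log2 fold change -3.11, SE 0.31, edgeR adjusted p = 7.1e-10). EXPA3 had 49.9, 33.8 and 45.5 CPM in WT-WA, against 213, 204 and 172 CPM in WT-M, also apart (log2 fold change -2.19, SE 0.25, edgeR adjusted p = 7.1e-09). EXPA11 (-1.59) and EXPA9 (-1.05) fell too. In these same libraries all 5 leaf photosynthesis markers fell and 4 of 5 root tip markers rose, and their part in the member changes was not tested.

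In the mutant, more members rose than fell. Of the 42 tested members, 12 rose (5 XTH and 7 alpha-expansins) and 3 fell (all XTH) in cs-WA against cs-M, while 6.84% of all tested genes rose and 3.94% fell. The median log2 fold change was 0.48 over the members and -0.02 over all genes. Members called in the same direction in the WT-WA contrast were XTH11, XTH14, XTH20, EXPA1, EXPA4, EXPA14 and EXPA17, which rose, and XTH6, XTH7 and XTH32, which fell. EXPA9 rose in cs-WA and fell in WT-WA.

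XTH14 had no read in the mock libraries of the mutant and rose. It had 8.47, 13.02 and 11.3 CPM in cs-WA, against 0 CPM in every cs-M library. This is at least 40.9-fold higher, taking 3 counts per library as the floor (fitted log2 value 10.31, which depends on the prior count, SE 1.11, edgeR adjusted p = 5.1e-08). XTH31 (AT3G44990), a group IIIA hydrolase also known for its part in root aluminium sensitivity, had 26.1, 20.3 and 24.7 CPM in cs-WA, against 1.84, 0.682 and 0.623 CPM in cs-M. The treated libraries were far above the mock libraries (log2 fold change 4.43, SE 0.55, edgeR adjusted p = 4e-07).

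XTH7 and XTH6 fell in the mutant too. XTH7 had 0.287, 0.181 and 0.360 CPM in cs-WA, against 47.1, 27.3 and 23.7 CPM in cs-M. These libraries did not overlap (log2 fold change -6.88, SE 0.57, edgeR adjusted p = 1.5e-10). XTH6 had 2.80, 1.75 and 2.45 CPM in cs-WA, against 38.4, 27.7 and 24.5 CPM in cs-M, likewise apart (log2 fold change -3.71, SE 0.37, edgeR adjusted p = 5.5e-09). XTH32 fell by 2.34 on the log2 scale.

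Among the alpha-expansins of the mutant, EXPA8 (AT2G40610) had 2.94, 3.50 and 2.16 CPM in cs-WA, against 0.212, 0.0853 and 0.267 CPM in cs-M. All treated libraries were higher (log2 fold change 3.87, SE 0.67, edgeR adjusted p = 5.1e-05). EXPA14 had 2.01, 4.04 and 3.67 CPM in cs-WA, against 0.141, 0.512 and 0.356 CPM in cs-M, without overlap (log2 fold change 3.28, SE 0.51, edgeR adjusted p = 1.3e-05). EXPA4 (2.07), EXPA1 (1.38) and EXPA9 (1.28) rose from readily measured levels, and EXPA17, with no count in cs-M, was at least 1.93-fold higher in cs-WA.

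Several members with few reads had their highest mean level in cs-WA, where the root hair markers were also highest. They were singled out after their values were seen. XTH12 had 2.66, 3.01 and 2.52 CPM in cs-WA and none in cs-M, which is at least 10.2-fold higher, and at most 0.741 CPM in any other library. EXPA2 had 4.95, 4.34 and 4.61 CPM in cs-WA, against 0 to 0.0891 CPM in cs-M, a ratio of 85.7 (95% exact counting interval 23.4 to 712). XTH13, the tandem neighbour of XTH12, did not pass the low-count filter, and 19 of its 26 reads were in cs-WA, against 0 in cs-M (at least 1.63-fold higher). XTH26, also below the filter, had 22 of its 64 reads in cs-WA and 1 in WT-WA. The root hair markers summed to 14.1 to 23.4 CPM in cs-WA and to at most 2.47 CPM in any other group, and their part in these values was not tested.

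**Figure D3:**
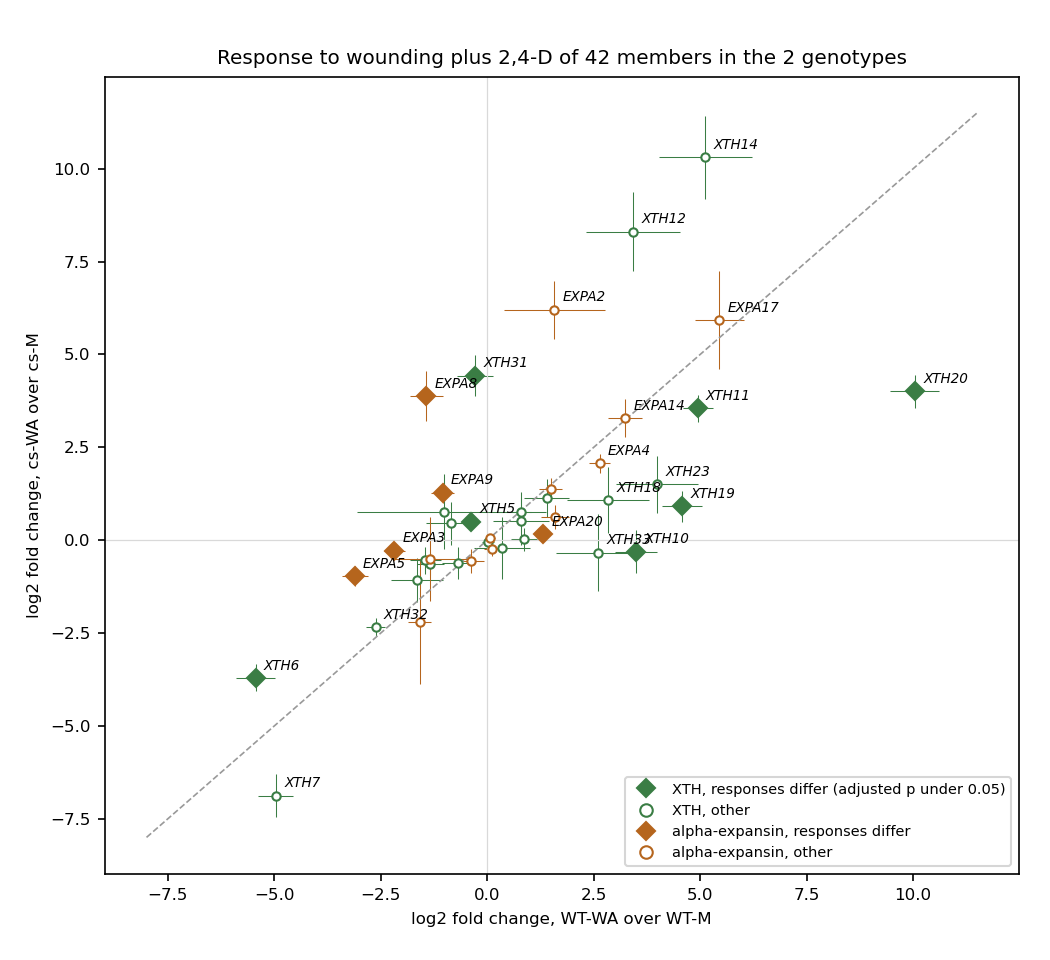
Log2 fold change of the 42 tested members after wounding with 2,4-D in the mutant (cs-WA over cs-M, vertical) and in wild type (WT-WA over WT-M, horizontal), with bars of 1 SE and a dashed line of equal response. Filled diamonds mark the 12 members whose responses differed (adjusted p under 0.05), with XTH31 and EXPA8 above the line and XTH20 and XTH19 below it.

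With 2,4-D but no wounding, 17 members were called in wild type and 4 in the mutant. In WT-A against WT-M, 13 members rose (7 XTH and 6 alpha-expansins) and 4 fell, while 13.2% of all genes rose and 14% fell. The largest rises were XTH20 (9.53, with 20.1, 57.8 and 37.9 CPM in WT-A), XTH19 (5.05), XTH11 (4.37), EXPA17 (4.14) and XTH14 (3.92), all log2 fold changes. With few reads in WT-M, the ratio was 894 (95% exact counting interval 247 to 7385) for XTH20 and 20.7 (3.31 to 858) for XTH14. XTH33, which codes for a membrane-anchored XTH, rose by 3.36, but by 2.27 without WT-A replicate 3, when it was not called (adjusted p = 0.061). XTH18 (2.61) was not called without WT-A replicate 3 or WT-M replicate 1 (adjusted p 0.080 and 0.082). EXPA4 and EXPA14 rose by 2.60 and 2.63. XTH6 (-4.45), XTH7 (-4.30), XTH32 (-1.93) and EXPA5 (-1.74) fell. In cs-A against cs-M, EXPA4 alone rose (1.56) and XTH7 (-6.60), XTH6 (-2.55) and XTH32 (-1.96) fell, while 3.05% of all genes rose and 3.13% fell. The root tip markers summed to 12.9 to 13.4 CPM in cs-A and 51.2 to 54.0 CPM in WT-A, and the leaf photosynthesis markers to 1330 to 1815 CPM in WT-A, and their part was not tested.

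XTH19 (AT4G30290) responded to 2,4-D in wild type and was not called in the mutant. It had 19.7, 29.5 and 19.8 CPM in cs-A and 14.8, 38.7 and 25.9 CPM in cs-M. In wild type it had 175, 182 and 333 CPM in WT-A and 4.30, 9.17 and 7.09 CPM in WT-M. The cs groups overlapped and the WT groups were far apart, and the difference between the responses was -5.24 log2 units (cs minus WT, SE 0.63, edgeR adjusted p = 9.5e-08). XTH18, the tandem neighbour of XTH19, shares 87.76% of its coding sequence with it, and 1.70% of the 50-base words of XTH18 and 1.77% of those of XTH19 recur elsewhere in the genome and cannot be placed uniquely.

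Wounding alone called few members. In WT-W against WT-M, XTH20 and EXPA17 rose and edgeR called 0 lower (1 at an unadjusted p under 0.05, 0 called by DESeq2), while 4.93% of all genes rose and 2.56% fell. By adjusted p alone, without the distance between the closest libraries, 6 members were higher and 1 lower. The lower member was EXPA8 (log2 fold change -1.29, edgeR adjusted p = 0.01), and EXPA4 was among the higher (0.94, edgeR adjusted p = 0.0027). The share of all genes by adjusted p alone was not counted. XTH20 had 21.6, 10.5 and 15.4 CPM in WT-W, against at most 0.0675 CPM in WT-M, which separated the groups completely. The ratio was 359 (95% exact counting interval 98.9 to 2967) and the log2 fold change 8.25 (SE 0.61, edgeR adjusted p = 1.2e-10). EXPA17 (AT4G01630) had 0.493, 0.617 and 1.03 CPM in WT-W, against 0.230, 0.166 and 0.0675 CPM in WT-M. The groups did not overlap (log2 fold change 2.15, SE 0.67, edgeR adjusted p = 0.015). These are low counts, and without WT-W replicate 3 or WT-M replicate 3 its adjusted p was 0.072 or 0.062.

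In cs-W against cs-M, XTH20 rose and edgeR called 0 lower (1 at an unadjusted p under 0.05, 0 called by DESeq2), while 0.777% of all genes rose and 0.0379% fell. XTH20 had 2.05, 2.53 and 3.21 CPM in cs-W, against 0.635, 0.597 and 0.445 CPM in cs-M. The groups did not overlap, but the rise was smaller than in wild type (log2 fold change 2.17, SE 0.49, edgeR adjusted p = 0.017). The call was lost without any one of the cs-M libraries or without cs-W replicate 3, with adjusted p values between 0.077 and 0.13.

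It was tested whether the fold changes of wounding and 2,4-D multiply, not whether their CPM levels add up. The interaction is the combined log2 response minus the sum of the single log2 responses. In wild type this was negative for 6 members (XTH20, XTH28, XTH32, EXPA3, EXPA5 and EXPA11) and edgeR called 0 positive (0 at an unadjusted p under 0.05 and 0 by DESeq2), while 8.03% of all genes were positive and 11% negative. XTH20 had an interaction of -7.74 log2 units (SE 0.73, edgeR adjusted p = 3.3e-08). Its level was 51.1, 70.9 and 42.6 CPM in WT-WA, 20.1, 57.8 and 37.9 CPM in WT-A and 21.6, 10.5 and 15.4 CPM in WT-W. The negative interaction of XTH20 thus does not mean a lower level after the combined treatment. Its size depends on the mock libraries, in which XTH20 was at or near 0. XTH28 (AT1G14720), known from stamens, had 83.2, 83.6 and 62.4 CPM in WT-WA, 113, 102 and 92.3 CPM in WT-A, 108, 92.3 and 95.5 CPM in WT-W and 93.8, 68.4 and 64.4 CPM in WT-M. Each WT-A and WT-W library lay above each WT-WA library, but no contrast of XTH28 was called (interaction -0.81, SE 0.19, edgeR adjusted p = 0.0039). Without WT-M replicate 2 or WT-W replicate 3, XTH20 and XTH28 were the 2 members still called. The calls of EXPA3, EXPA5 and EXPA11 were each lost in 8 to 10 of the 12 fits without 1 library. In the mutant, 0.781% of all genes were positive and 0.279% negative, and XTH11 (AT3G48580) was the 1 member called. XTH11 had 10.3, 12.6 and 9.14 CPM in cs-WA, 2.03, 1.74 and 1.57 CPM in cs-A, 0.732, 1.23 and 0.695 CPM in cs-W and 1.20, 0.768 and 0.712 CPM in cs-M. The cs-WA libraries were the highest, and each cs-A library was also above each cs-W and cs-M library, though XTH11 was not called in cs-A against cs-M. The interaction was 2.59 (SE 0.58, edgeR adjusted p = 0.021). Its call was lost without cs-A replicate 3, cs-M replicate 1 or cs-W replicate 3 (adjusted p 0.053 to 0.13).

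Few members differed between mock-treated and untreated seedlings. In WT-M against WT-ctrl, EXPA11 rose (log2 fold change 0.98, SE 0.24, edgeR adjusted p = 0.019) and edgeR called 0 lower (2 at an unadjusted p under 0.05, 0 called by DESeq2), while 0.213% of all genes rose and 0.227% fell. It had 62.1, 45.2 and 50.9 CPM in WT-M, against 26.2, 27.6 and 27.1 CPM in set C0 and 22.7 and 29.6 CPM in set C1 of WT-ctrl. The call was lost without WT-M replicate 1 or 3, and with set C1 alone as the untreated group (adjusted p = 0.17). In cs-M against cs-ctrl, edgeR called 0 members, against 0.123% of all genes up and 0.00474% down, and DESeq2 also called 0. At an unadjusted p under 0.05, 3 members were higher and 1 lower. Of these, XTH7 passed the adjusted p (log2 fold change 1.27, edgeR adjusted p = 0.021) but not the distance between the closest libraries.

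The genotypes differed before any treatment. More were lower than higher in the mutant among the tested members (14.3% and 4.76%), as among all genes. In cs-ctrl against WT-ctrl, 2 members rose (XTH19 and EXPA20) and 6 fell (XTH7, XTH8, XTH31, EXPA1, EXPA8 and EXPA11), while 6.69% of all genes rose and 9.92% fell. The median log2 fold change was -0.36 over the members and 0 over all genes. With the untreated libraries of set C1 alone, 17 members were called, including all 8 of these, 4 higher and 13 lower. The leaf photosynthesis markers summed to 6589 to 8345 CPM in cs-ctrl and 10479 to 15143 CPM in WT-ctrl, the shoot meristem markers to 226 to 276 CPM in cs-ctrl and 123 to 165 CPM in WT-ctrl, and the vascular markers to 112 to 122 CPM in cs-ctrl and 144 to 210 CPM in WT-ctrl. By the call rule used for the members, 1 of 5 leaf and 1 of 5 vascular markers were lower and 1 of 4 tested meristem markers higher in cs-ctrl. By adjusted p alone, 5 of 5 leaf and 4 of 5 vascular markers were lower and 4 of 4 meristem markers higher. By that looser rule 6 members were higher and 16 lower, and the share of all genes was not counted. The part of the markers in the member differences was not tested.

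EXPA11 (AT1G20190) was nearly absent from the mutant. It had 0, 0.192 and 0.331 CPM in cs-ctrl (lowest, median and highest of 6 libraries), against 26.2, 27.6, 27.1, 22.7 and 29.6 CPM in WT-ctrl. The log2 fold change was -7.22 (SE 0.35, edgeR adjusted p = 8.2e-17). EXPA8 had 0, 0.0637 and 0.205 CPM in cs-ctrl (lowest, median and highest), against 30.7, 20.3, 16.7, 18.3 and 12.4 CPM in WT-ctrl. Most cs libraries were at or below 1 count for EXPA8, and no library overlapped with wild type (log2 fold change -8.01, SE 0.48, edgeR adjusted p = 1.1e-14).

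XTH31 had 0.626, 1.02 and 2.87 CPM in cs-ctrl (lowest, median and highest), against 30.0, 22.7 and 20.05 CPM in set C0 and 5.64 and 7.10 CPM in set C1 of WT-ctrl. The genotypes did not overlap although the WT sets were themselves apart (log2 fold change -3.67, SE 0.38, edgeR adjusted p = 1.7e-09). XTH8 (AT1G11545) had 4.02, 5.90 and 9.15 CPM in cs-ctrl (lowest, median and highest), against 22.9, 14.9, 29.6, 46.8 and 37.7 CPM in WT-ctrl. The lowest WT library stayed above the highest cs library (log2 fold change -2.32, SE 0.29, edgeR adjusted p = 5.1e-08). EXPA1 (-2.92) and XTH7 (-2.23) were the others that fell.

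Of the members that rose in untreated mutants, EXPA20 (AT4G38210) was even across libraries, with 29.5, 32.6 and 34.7 CPM in cs-ctrl (lowest, median and highest), against 4.72, 5.95, 6.96, 8.87 and 9.28 CPM in WT-ctrl. The groups were wide apart (log2 fold change 2.18, SE 0.13, edgeR adjusted p = 9.4e-15). Another annotated gene, AT4G38215, covers 86.25% of the EXPA20 exons, and the handling of reads in such overlaps is not given in the sources used here. XTH19 had 17.8, 20.1 and 29.0 CPM in cs-ctrl (lowest, median and highest), against 1.74, 0.304, 3.97, 3.14 and 2.46 CPM in WT-ctrl. All cs libraries were above all WT libraries (log2 fold change 3.23, SE 0.40, edgeR adjusted p = 4.9e-08).

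After mock treatment, 5 members rose (XTH9, XTH19, XTH20, XTH25 and EXPA20) and 10 fell in cs-M against WT-M, while 9.78% of all genes rose and 11.2% fell. XTH25 was not called there without cs-M replicate 2, WT-M replicate 1 or WT-M replicate 2 (adjusted p 0.079 to 0.12), EXPA17, one of those that fell, was not called without any 1 of the cs-M libraries or WT-M replicate 1 or 2 (0.069 to 0.089), and EXPA14 was not called without cs-M replicate 1 (0.059). Under wounding alone, 3 rose (XTH30, EXPA5 and EXPA20) and 15 fell in cs-W against WT-W, while 8.02% of all genes rose and 9.81% fell, and of those that fell EXPA16 was not called without cs-W replicate 1 (adjusted p = 0.052). Under 2,4-D alone, 6 rose (XTH5, XTH6, XTH9, XTH25, EXPA5 and EXPA20) and 20 fell in cs-A against WT-A, while 15.6% of all genes rose and 16.6% fell, and the median log2 fold change was -1.23 over the members and 0.03 over all genes. The 20 that fell in cs-A were led by EXPA11 (-9.24), EXPA17 (-6.53), XTH20 (-5.41), EXPA8 (-5.28) and XTH17 (-5.07). EXPA11 had 3 reads in cs-A and 1993 in WT-A, a ratio of 0.00147 (95% exact counting interval 0.000303 to 0.00430), and EXPA17 had 1 read in cs-A and 127 in WT-A, a ratio of 0.00769 (0.000193 to 0.0436). XTH25 was not called in cs-A against WT-A by DESeq2 (adjusted p = 0.055), nor by edgeR without cs-A replicate 1 or 3 or WT-A replicate 2 or 3 (0.064 to 0.13).

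XTH17 and EXPA10 show the 2,4-D groups at low and at high levels and were picked after their values were seen. XTH17 (AT1G65310), a root-expressed member of group II, had 0.0675, 0.348 and 0.299 CPM in cs-A, against 5.38, 3.97 and 15.7 CPM in WT-A. EXPA10 (AT1G26770), known from leaf growth, had 69.3, 112 and 106 CPM in cs-A, against 194, 328 and 361 CPM in WT-A. Neither gene overlapped between the genotypes, and the log2 fold change of EXPA10 was -1.62. Across the 5 genotype contrasts, XTH7, XTH8, EXPA1 and EXPA11 fell in every one, none rose in every one, and XTH14, XTH19 and XTH20 were called in opposite directions in different treatments. The lower call of XTH14, in cs-A against WT-A, rested on 2 reads in cs-A and 20 in WT-A and was lost without cs-A replicate 2 or 3 (adjusted p 0.073 and 0.056).

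**Figure D4:**
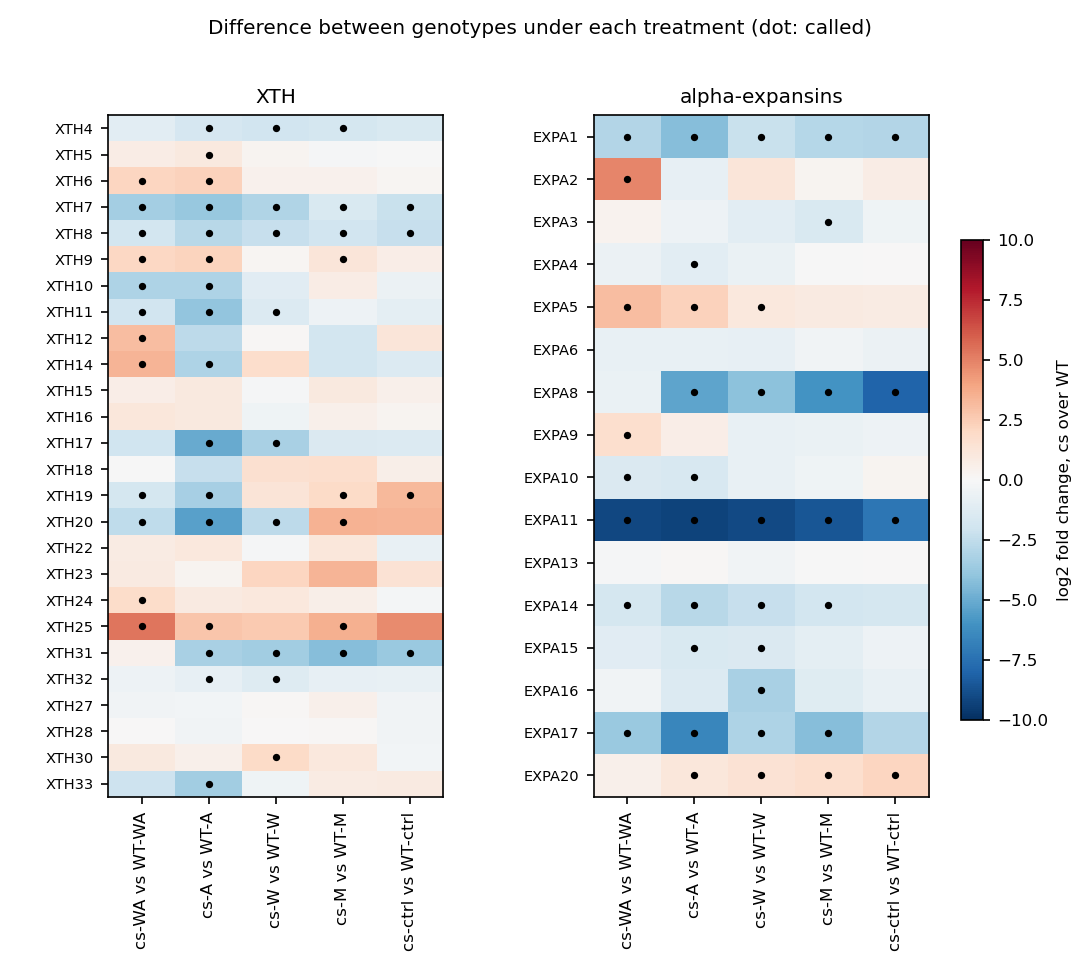
Log2 fold change of cs over WT under each of the 5 conditions for the 42 tested members (red higher in cs, blue lower in cs, dot for a called difference). EXPA11 fell in all 5 contrasts (-7.22 to -9.24), and EXPA8 fell in 4 but not in cs-WA against WT-WA.

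The combined treatment left the genotypes apart in both directions. In cs-WA against WT-WA, 9 members rose (6 XTH and 3 alpha-expansins) and 11 fell (6 XTH and 5 alpha-expansins), while 16.3% of all genes rose and 12.6% fell. The median log2 fold change was -0.22 over the members and 0.03 over all genes. In these groups 5 of 5 leaf photosynthesis markers and all 3 tested root hair markers were called higher in cs-WA, and their part in the member differences was not tested.

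XTH25 (AT5G57550) had 13.6, 3.13 and 2.23 CPM in cs-WA, against 0.196, 0.0632 and 0.185 CPM in WT-WA. The mutant libraries were all higher but spread widely (log2 fold change 5.33, SE 1.47, edgeR adjusted p = 0.0025). XTH14, with 8.47 to 13.02 CPM in cs-WA and 0.261 to 2.04 CPM in WT-WA, had a log2 fold change of 3.38 (SE 0.55, edgeR adjusted p = 7.3e-06). EXPA5 had 34.0, 36.9 and 48.9 CPM in cs-WA, against the 3.35 to 7.34 CPM in WT-WA given above, without overlap (log2 fold change 3.06, SE 0.31, edgeR adjusted p = 1.4e-09). EXPA9 (AT5G02260) had 8.55, 9.52 and 9.50 CPM in cs-WA, against 3.07, 2.65 and 2.96 CPM in WT-WA. Both groups were tight and apart (log2 fold change 1.66, SE 0.27, edgeR adjusted p = 5.4e-06). EXPA2 (4.89), XTH12 (3.08), XTH6 (2.17), XTH9 (2.10) and XTH24 (1.85) were the other members higher in cs-WA, of which XTH12 was not called by DESeq2 (adjusted p = 0.080).

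On the lower side, EXPA11 had 0.0718, 0 and 0 CPM in cs-WA, against 18.01, 10.7 and 23.8 CPM in WT-WA. A single read was counted in the 3 cs-WA libraries and 832 in the 3 WT-WA libraries, a ratio of 0.00128 (95% exact counting interval 3.24e-05 to 0.00716, fitted log2 value -9.14, SE 0.65, edgeR adjusted p = 9.3e-13). EXPA1 (AT1G69530) had 53.4, 43.3 and 50.1 CPM in cs-WA, against 396, 453 and 295 CPM in WT-WA. The groups did not overlap (log2 fold change -2.96, SE 0.28, edgeR adjusted p = 4.4e-10). EXPA1 rose in both genotypes on treatment, yet every cs-WA library was below every untreated wild-type library, which had 56.1 to 157 CPM. That comparison was not tested, and its closest values were 53.4 and 56.1 CPM.

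XTH7 had 0.181 to 0.360 CPM in cs-WA and 1.71 to 3.76 CPM in WT-WA, with a log2 fold change of -3.41 (SE 0.70, edgeR adjusted p = 0.00013). XTH20 had 10.12, 8.80 and 8.63 CPM in cs-WA, against 42.6 to 70.9 CPM in WT-WA, without overlap (log2 fold change -2.58, SE 0.31, edgeR adjusted p = 3.7e-08). EXPA17 (-3.74), XTH10 (-3.06), XTH11 (-1.89), XTH8 (-1.86), EXPA14 (-1.79), XTH19 (-1.73) and EXPA10 (-1.43) were the other members lower in cs-WA. EXPA8, lower in cs in each of the other conditions, was not called here, with 2.16 to 3.50 CPM in cs-WA and 2.27 to 7.47 CPM in WT-WA.

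**Figure D5:**
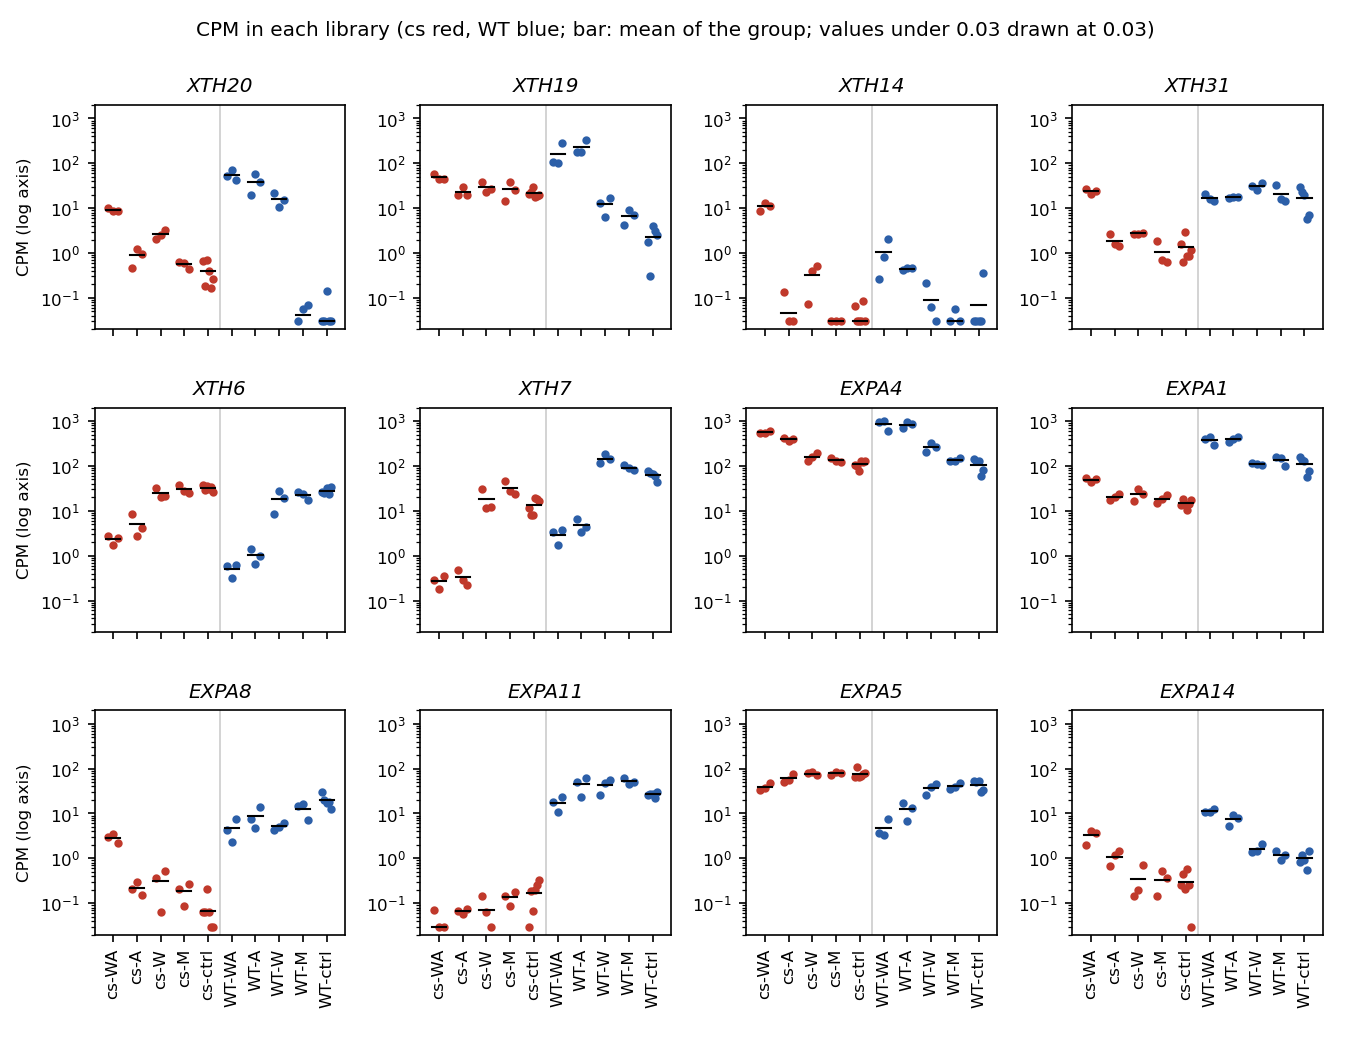
CPM in each library (log axis, values under 0.03 drawn at 0.03) of 12 members in the 10 groups, cs in red and WT in blue, with a bar at the group mean. XTH20 reached 42.6 to 70.9 CPM in WT-WA and 8.63 to 10.12 CPM in cs-WA, and EXPA11 stayed at or below 0.331 CPM in all cs libraries.

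The difference between the responses of the genotypes (cs minus WT) was tested directly and called at an adjusted p under 0.05. For 2,4-D, 5 members responded more positively in the mutant and 13 more negatively, while 23.9% of all genes were positive and 20.8% negative. XTH20 had the most extreme value, -8.87 log2 units (SE 1.04, edgeR adjusted p = 6e-08), its level being 0.473, 1.22 and 0.972 CPM in cs-A and 20.1, 57.8 and 37.9 CPM in WT-A. For wounding, edgeR called 0 members positive (0 at an unadjusted p under 0.05 and 0 by DESeq2) and 2 negative, while 8.67% of all genes were positive and 6.39% negative. These were XTH20 (-6.07, SE 1.02, edgeR adjusted p = 0.00027) and XTH7 (-1.49, SE 0.47, edgeR adjusted p = 0.03). XTH7 had 31.4, 11.8 and 12.1 CPM in cs-W and 114, 181 and 143 CPM in WT-W, and was called against mock in neither genotype. The difference was no longer called without cs-M replicate 1, cs-W replicate 2 or 3, WT-M replicate 2 or 3 or WT-W replicate 2.

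For the combined treatment, 7 members were positive and 5 negative, while 24.4% of all genes were positive and 20.8% negative. EXPA8 had the smallest adjusted p, with a difference of 5.31 (SE 0.78, edgeR adjusted p = 2.3e-06). It rose in the mutant, whereas in wild type it had 4.24, 2.27 and 7.47 CPM in WT-WA and 14.7, 15.96 and 7.16 CPM in WT-M. XTH31 was next, with 4.72 (SE 0.70, edgeR adjusted p = 2.7e-06), at 20.9, 16.3 and 14.6 CPM in WT-WA and 33.2, 15.8 and 14.2 CPM in WT-M. Neither gene was called between cs-WA and WT-WA, whereas both fell in the other 4 genotype contrasts. EXPA9, EXPA5, EXPA3, XTH6 and XTH5 were the other positive members, and XTH20, XTH10, XTH19, XTH11 and EXPA20 the negative ones.

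Some members lie in tandem. XTH12, XTH13, XTH25 and XTH22 lie side by side on chromosome 5, and XTH18, XTH19 and XTH24 together on chromosome 4, as do XTH14 and XTH23. XTH12 was detected almost only in cs-WA, whereas XTH25 was also present in cs-A (2.90 to 6.80 CPM) and cs-M (2.75 to 5.03 CPM). In cs-ctrl, XTH25 had 4.85 to 19.6 CPM in set C0 and 0 to 0.504 CPM in set C1, which did not overlap. XTH22 was called in no contrast, at 49.97 to 57.3 CPM in cs-WA and 14.2 to 61.0 CPM in WT-WA. XTH14 rose in both combined treatments, whereas XTH23 was called in WT-WA but not in cs-WA, at 6.27, 5.43 and 29.7 CPM in WT-WA and 0.384, 1.66 and 0.405 CPM in WT-M, and the difference between the genotypes in this response was not called (edgeR adjusted p = 0.098).

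Of the 42 tested members, 35 were called in at least 1 of the 13 contrasts and 7 in none: XTH15, XTH16, XTH22, XTH27, XTH28, EXPA6 and EXPA13. The share of all tested genes called in at least 1 contrast was not counted, so this count does not set the members apart from other genes. The group means of EXPA13 ranged between 16.2 ± 1.5 CPM per kb in WT-A and 22.3 ± 4.4 CPM per kb in WT-W (SD, n = 3 each). XTH27, known from leaf veins, had 52.3, 58.0 and 52.5 CPM in cs-WA and 60.5, 57.2 and 91.0 CPM in WT-WA. The 8 members below the filter were XTH1 and XTH2 with no count at all, XTH3 and XTH21 with 2 counts each over the 35 libraries, and XTH13 (26), XTH26 (64), XTH29 (49) and EXPA12 (35). For XTH1 and XTH2 the 3-count limit corresponds to at most 0.269 CPM in any library.

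Other genes of the wall were counted in the same way. Of a list of 38 genes of other expansins, xyloglucan synthesis and trimming and cellulose synthesis, 34 were tested. In WT-WA against WT-M, EXLB1, an expansin-like gene, rose (3.29) and CESA2, a primary-wall cellulose synthase, and BGAL10, a xyloglucan beta-galactosidase, fell (-1.59 and -0.74, log2 fold changes), or 2.94% up and 5.88% down of the list, while 16% of all genes rose and 17.9% fell. In cs-WA against cs-M, EXLB1 rose as well (3.07) and CESA5 fell (-1.15), or 2.94% each, while 6.84% of all genes rose and 3.94% fell. In cs-ctrl against WT-ctrl, edgeR called 0 higher and 5 lower (14.7%), while 6.69% of all genes rose and 9.92% fell. The 5 were EXLA3 (-4.09), the xyloglucan backbone synthase CSLC4 (-3.64), the xyloglucan acetyltransferase AXY4 (-2.30), the galactosyltransferase XLT2 (-1.47) and CESA6 (-1.19). By adjusted p alone, without the distance between the closest libraries, 4 were higher and 18 lower. The share of all genes by adjusted p alone was not counted. In cs-WA against WT-WA, EXPB1 (3.94) and CSLC12 (1.93) rose and CSLC4 (-3.05), AXY4 (-2.95), EXLA3 (-2.84) and MUR3 (-1.36) fell, or 5.88% up and 11.8% down, while 16.3% of all genes rose and 12.6% fell. In cs-A against WT-A, 5.88% of the list rose and 26.5% fell, while 15.6% of all genes rose and 16.6% fell. In cs-W against WT-W, 5.88% of the list rose and 20.6% fell, while 8.02% of all genes rose and 9.81% fell. In cs-M against WT-M, 5.88% of the list rose and 17.6% fell, while 9.78% of all genes rose and 11.2% fell. CSLC4, AXY4 and EXLA3 fell in all 5 genotype contrasts.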

How the data were processed

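RNA-seq was deposited as whole-number read counts per gene for all 35 libraries. The counts in the deposited table were made by the authors by trimming reads with Trimmomatic (version 0.32), aligning them to TAIR10 with TopHat2 (version 2.0.10), keeping unique alignments and counting reads per gene with HTSeq, per the submitters' processing notes and the study's methods. The strand setting and the meaning of the set names C0 and C1 of the untreated libraries are not given in the sources used here. The 50 members and all gene lists were chosen with earlier results of these data known.

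Counts were fitted in edgeR 4.0.16 (R 4.3.3) with a model of all 10 groups, TMM scaling (factors 0.923 to 1.06) and filterByExpr with a minimum count of 10, and 13 contrasts and 5 interactions were tested by the quasi-likelihood F test with Benjamini-Hochberg adjustment over 21115 genes. A difference was called at an adjusted p under 0.05 and a distance of at least 0.6 in log2 CPM, with 0.5 counts added, between the closest libraries, and an interaction by its adjusted p alone. Against a group at 0, folds are bounds against 3 counts per library, and against 1 to 3 counts they are ratios with 95% exact intervals, which cover counting error only. The pipeline was tested on simulated data. Promoters and loci were read from the RefSeq annotation of TAIR10.1, to which all 50 members matched.

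Library values and full statistics are given, in the contrasts WT-WA with WT-M, cs-WA with cs-M, cs-ctrl with WT-ctrl and cs-WA with WT-WA, for the 2 called members of each family with the largest change in each direction among those averaging at least 1 CPM. They are also given for the 2 called members with the smallest adjusted p in each interaction and for up to 2 called members per family in each wounding contrast. Other members are given by level, range or call. Alternatives were DESeq2 1.42.0, other scalings and filters, other call rules, fits of the compared groups only, single untreated sets, a replicate block and leaving out each library. No libraries of a group agreed within sampling noise, the smallest chi-square per degree of freedom between them being 3.00.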

Additional observations from a re-analysis of the deposited data

Results flagged for a closer look

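Of the tested members, 42.9% differed between genotypes in the response to 2,4-D, while 23.9% of all genes were positive and 20.8% negative. For wounding it was 4.76% of members, against 8.67% and 6.39% of all genes. For the combined treatment it was 28.6%, against 24.4% and 20.8%. By direction, 11.9% of members were positive and 31% negative for 2,4-D. It was 0% and 4.76% for wounding, and 16.7% and 11.9% for the combined treatment. The negative share for 2,4-D exceeded that of all genes, a difference that was not tested, and the other shares did not. The responses of the genotypes differed by the test of the difference itself (edgeR, adjusted p under 0.05) for the following members, with the cs response minus the WT response in log2 units in brackets. For 2,4-D these were XTH20 (-8.87), XTH19 (-5.24), XTH11 (-3.41), XTH5 (1.06), XTH10 (-3.87), EXPA1 (-1.41), XTH6 (1.90), EXPA5 (1.37), EXPA9 (1.30), EXPA4 (-1.04), EXPA3 (1.03), XTH7 (-2.30), XTH33 (-4.30), XTH18 (-4.01), XTH17 (-3.63), EXPA10 (-1.18), EXPA20 (-0.58) and XTH23 (-3.06). For wounding they were XTH20 (-6.07) and XTH7 (-1.49). For the combined treatment they were EXPA8 (5.31), XTH31 (4.72), EXPA9 (2.33), XTH20 (-6.04), XTH19 (-3.66), EXPA3 (1.90), EXPA5 (2.14), EXPA20 (-1.16), XTH10 (-3.80), XTH5 (0.87), XTH6 (1.73) and XTH11 (-1.40). With 1 library left out, the 2,4-D difference was no longer called in 8 fits for XTH23 (adjusted p 0.072 to 0.10), 7 for EXPA10 (0.050 to 0.16), 6 for EXPA20 (0.063 to 0.13), 3 for XTH17, 2 for XTH33 and 1 each for XTH18 and EXPA3. The combined difference was no longer called in 6 fits for XTH11 (0.050 to 0.16) and 2 for XTH6, and the wounding difference in 6 for XTH7 (0.060 to 0.12). Values for XTH20 depend on its near absence from WT-M.

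Single untreated libraries stood apart from the others of their group in 12 of 74 groups checked, over 37 members averaging at least 1 CPM, by a gap exceeding 0.71 (5 libraries) or 0.625 (6 libraries) of the range. About 1 in 20 groups would be picked by chance. In cs-ctrl, replicate 3 of set C0 was highest for 9 members. It had 280 CPM of XTH4 (next 192), 1895 of XTH9 (1143), 304 of XTH16 (148), 7.92 of XTH17 (1.63), 12.1 of XTH18 (2.82), 50.8 of XTH22 (21.2), 7.65 of XTH23 (1.69), 8.40 of XTH33 (2.63) and 0.205 of EXPA8 (0.0652). In WT-ctrl, replicate 2 of set C1 had 0.351 CPM of XTH14 (0 in the others) and 0.703 CPM of XTH25 (next 0.179), and replicate 3 of set C0 had 0.139 CPM of XTH20 (0 in the others), all from few reads. Without cs-ctrl replicate 3 of set C0, 8 members were still called in cs-ctrl against WT-ctrl.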

How the results depend on the processing

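Of the 187 calls of a member in a contrast, none reversed under those of the 11 alternatives that applied to it, or when 1 library of its groups was left out. The filter of 10 counts could be tried on 72 calls, the other call rules on 148 each, fits of the compared groups on 178 and single untreated sets on 9 each, and the rest on all 187. Calls lost numbered 3 under DESeq2, 3 with library totals, 3 without the filter, 1 with RLE factors and 8 when only the compared groups were fitted, and with a library left out 101 were lost and 1297 kept. Depth limits the members with few reads: only 21 members had at least 10 counts in every library, and with that filter the members called were 6 in WT-A against WT-M, 2 in cs-A against cs-M, 0 in WT-W against WT-M, 0 in cs-W against cs-M, 8 in WT-WA against WT-M, 4 in cs-WA against cs-M, 0 in WT-M against WT-ctrl, 3 in cs-ctrl against WT-ctrl, 7 in cs-M against WT-M, 11 in cs-A against WT-A, 6 in cs-W against WT-W and 7 in cs-WA against WT-WA. With the same filter, the genotype differed in its response to 2,4-D for 9 members, to wounding for 0 and to both for 5, and the interaction of wounding and 2,4-D in cs was called for 0. With the fitted log2 fold change of at least 0.6 in place of the closest pair, 4 were called in WT-W against WT-M, 1 in cs-M against cs-ctrl and 18 in cs-ctrl against WT-ctrl. With only the compared groups, 1 was called in WT-W against WT-M, 0 in cs-W against cs-M, 0 in WT-M against WT-ctrl, and for wounding by 2,4-D 3 in WT and 2 in cs. Without the filter, 0 were called in WT-M against WT-ctrl. With set C0 alone, 1 was called in cs-M against cs-ctrl and 12 in cs-ctrl against WT-ctrl, and with set C1 alone, chosen after seeing the data, 2 in WT-M against WT-ctrl and 17 in cs-ctrl against WT-ctrl. Apart from the filter, which tests fewer genes, the cause was not tested.

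With 1 library left out, the members called ranged from 17 to 19 in WT-A against WT-M, 4 to 6 in cs-A against cs-M, 1 to 4 in WT-W against WT-M, 0 to 3 in cs-W against cs-M, 21 to 24 in WT-WA against WT-M, 15 to 16 in cs-WA against cs-M, 0 to 1 in WT-M against WT-ctrl, 0 to 0 in cs-M against cs-ctrl, 8 to 9 in cs-ctrl against WT-ctrl, 13 to 16 in cs-M against WT-M, 24 to 28 in cs-A against WT-A, 18 to 23 in cs-W against WT-W and 20 to 25 in cs-WA against WT-WA. The genotype difference in response was called for 13 to 18 members with 2,4-D, 1 to 3 with wounding and 10 to 14 with both, and the interaction of wounding and 2,4-D for 2 to 9 in WT and 0 to 1 in cs. The lowest count in WT-W against WT-M was without WT-W replicate 3 and the highest without WT-M replicate 3, and cs-W against cs-M reached 3 without cs-W replicate 1.

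By the study's methods, the libraries of each replicate were sequenced together in the same lane. Deviations from the group means correlated at 0.052 on average between same-numbered libraries of different groups, and at -0.026 for other numbers. Deviations within a group cancel by construction, so the latter value is tied to the former and is no separate comparison. For the groups compared in contrasts, the same-number correlations were -0.13 to 0.32. These values do not show whether replicate numbers marked a batch. A fit with the replicate number as a block called 21 members in WT-WA against WT-M, 15 in cs-WA against cs-M, 8 in cs-ctrl against WT-ctrl and 20 in cs-WA against WT-WA, and it changed no count by more than 1.5 times. It lost 1 call, EXPA3 in the interaction of wounding and 2,4-D in WT (adjusted p = 0.054), and gained 4: XTH17 in cs-A against cs-M (-2.52, adjusted p = 0.030), XTH17 in that interaction (-2.02, 0.045), and the genotype difference in response to 2,4-D for XTH28 (-0.44, 0.048) and to both for EXPA10 (-0.91, 0.027).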
